A study of Mus musculus with 48 samples.

Results

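The data described here are the 12 cortical arrays from wild-type FvB/NJ mice, chosen by the region, genotype and age given in the labels, out of 48 arrays in the series. The series measured messenger RNA in cortex and striatum of wild-type mice and of BACHD-ΔN17 mice, which carry a mutant huntingtin transgene named for the missing N17 stretch. It used the Illumina MouseRef8v.2 bead array on 24 mice, 4 for each genotype and age, and each mouse gave 1 array of each region. Wild-type cortex was taken at 2, 7 and 11 months, from 2 males and 2 females at each age. These 12 mice carried no transgene and no treatment is labelled for them. Each mouse was sampled at 1 age, so the ages compare separate animals, and the animals are numbered 1 to 4 within an age only to name them. At each age 2 of the 4 mice shared the start of their name, and no start occurred at more than 1 age. The labels do not say what these starts stand for, so any effect of them cannot be told apart from age. Whole tissue was used, so a lower level of a transcript from fewer cells of a type and from less RNA per cell cannot be told apart.

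Between 2 and 11 months a mouse goes from young adult to middle age. Oligodendrocytes, the glia that wrap axons in myelin, are still being formed in the young adult mouse cortex from precursor cells that first become committed, newly formed oligodendrocytes and then mature, myelinating ones. Some transcripts are used as markers of a stage, though levels in bulk tissue do not separate the stages. Microglia and astrocytes are the glia whose inflammatory and reactive transcripts are most often followed in ageing brain.

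The question put to the 12 arrays was which transcripts differed with age in cortex without the transgene, as a straight-line trend over the 3 ages and as 7 against 2 months. Values are normalized log2 intensities of the brightest probe of each gene, so that a difference of 1 is a doubling. The trend is given as the fitted change over the 9 months from 2 to 11 months. Called means a Benjamini-Hochberg adjusted p under 0.05 in limma over 11047 features detected in cortex.

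The 12 arrays each detected 12477 to 13908 probes, and a signal counted as detected from a level between 5.62 and 6.17, depending on the array. The arrays of 11-month mice 1 and 2 were dim, with the intensity that 1 probe in 20 exceeds at 2659 and 2728 against 4200 to 5806 on the other 10. Their highest correlation with another of the 12 arrays was 0.9849 and 0.9842 against 0.9915 to 0.9932. Cortical identity held on the excitatory markers: Slc17a7, the vesicular glutamate transporter of cortical neurons, lay at 13.16 to 13.85 against striatal group means of 7.59 to 8.81, and the cortical transcription factor Tbr1 at 11.24 to 11.65 against 5.84 to 6.71. Neurod6, another cortical neuron marker, was detected on none of the 12 arrays. Sex labels held: Xist spanned 9.30 to 9.58 in the females against 5.20 to 6.42 in the males, and the Y-linked Kdm5d 4.73 to 5.01 against 6.35 to 7.18. The internal sample numbers in the labels run from 1 to 32 and from 33 to 48. Each run holds 1 male and 1 female wild-type cortex of each age, and values within each run are given below. In the run 1 to 32 both 11-month cortices are the dim arrays, numbers 3 and 8, and the younger cortices have numbers 17 to 32. Within that run an effect of age at 11 months therefore cannot be told apart from dimness or number.

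Few transcripts in wild-type cortex passed the test, and those that did included oligodendrocyte genes that fell and an inflammatory protease gene that rose. Over 2 to 11 months, 1 gene rose, which is 0.00905% of the features tested, and 2 fell, which is 0.0181%. Casp1 rose, and Cldn11 and Mal fell. For 7 against 2 months none rose, 0%, and 2 fell, 0.0181%, namely Cldn11 and Lypd1. At an unadjusted p under 0.05 the trend held 384 higher features, 3.48%, and 516 lower ones, 4.67%. The same threshold for 7 against 2 months held 175 higher, 1.58%, and 275 lower, 2.49%. The median fitted trend of all features was -0.01 with a median SE of 0.16, and 96.4% of features had a trend of under 0.5 in size. In the 7 against 2 months comparison 98.3% lay under 0.5. All 11-month arrays lay below all 2-month arrays for 233 features, 2.11%, and above them for 202, 1.83%. All 7-month arrays lay below all 2-month arrays for 213, 1.93%, and above them for 135, 1.22%. All 8 later arrays lay below the 4 youngest for 53 features, 0.48%, and above them for 31, 0.281%.

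Cldn11, a claudin that seals the layers of the myelin sheath with tight junctions, had the lowest adjusted p of the trend. Its level at 2 months was 13.58, 13.33, 13.43 and 13.36 in the 4 mice. At 7 months it was 12.77, 13.00, 12.94 and 12.78. At 11 months it was 12.65, 12.87, 12.47 and 12.62. Every 7-month and every 11-month cortex lay below every 2-month cortex, and the older ages overlapped each other. The means were 13.42 ± 0.11, 12.87 ± 0.12 and 12.65 ± 0.16 (SD, n = 4 each). The trend was -0.78 with an SE of 0.09 and an adjusted p of 3.54e-05 in limma, a fall of 1.72-fold. By interval, 7 against 2 months gave -0.55 with an SE of 0.09 and an adjusted p of 0.0182, a fall of 1.47-fold, and 11 against 7 months gave -0.22. The first interval is the longer one, and no feature, Cldn11 included, was called as departing from a straight line. Among mice with internal numbers 1 to 32 the trend was -0.71, with an adjusted p of 0.112 from the smaller fit, and among those with numbers 33 to 48 it was -0.85 with an adjusted p of 0.0026. Without the 4 cortical arrays of the lowest internal numbers, which include both dim ones, it was -0.89. The 7 against 2 months call was lost without 2-month mouse 1, 3 or 4 or 7-month mouse 1, 3 or 4, at adjusted p-values of 0.065 to 0.105, and with the random block of mouse names or the replicate block, at 0.0654 and 0.0702.

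Mal, a membrane proteolipid that carries cargo to the myelin membrane, was at 10.43, 10.77, 10.57 and 10.13 at 2 months. It was at 9.87, 9.79, 10.17 and 9.88 at 7 months and at 9.99, 9.80, 9.77 and 9.61 at 11 months. All 11-month values lay below all 2-month values, while 1 mouse at 7 months lay above the lowest 2-month mouse. The means were 10.48 ± 0.27, 9.93 ± 0.17 and 9.79 ± 0.16 (SD, n = 4 each), and the trend was -0.70 with an SE of 0.13 and an adjusted p of 0.0404 in limma, a fall of 1.62-fold. The 7 against 2 months difference, -0.55, did not pass, with an adjusted p of 0.242. A second Mal probe gave a trend of -0.89. The Mal call was lost without 2-month mouse 1, 2 or 3, 7-month mouse 1 or 4, or 11-month mouse 2, 3 or 4, with adjusted p-values up to 0.235. It was also lost with the shared start of mouse names as a random block, at 0.126, with the replicate block, at 0.157, and when the 12 arrays were fitted alone, at 0.177. Over all alternatives its fitted trend ranged from -0.84 to -0.60. Within the runs of internal numbers it was -0.73 for 1 to 32 and -0.66 for 33 to 48, neither called, and without the 4 lowest numbers the adjusted p was 0.0656.

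Casp1 encodes caspase-1, the inflammasome protease that cuts the precursor of interleukin-1 beta into its active form. Its level was 9.51, 9.28, 9.17 and 9.65 at 2 months. It was 10.01, 10.50, 10.03 and 10.54 at 7 months and 10.40, 10.31, 10.56 and 10.27 at 11 months. All 8 older cortices lay above all 4 young ones, and the older ages overlapped. The means were 9.40 ± 0.22, 10.27 ± 0.29 and 10.39 ± 0.13 (SD, n = 4 each). The trend was 1.01 with an SE of 0.16 and an adjusted p of 0.0107 in limma, a rise of 2.01-fold. The difference at 7 months was already 0.87, or 1.82-fold, with an adjusted p of 0.0656. The trend was 0.99 among numbers 1 to 32, with an adjusted p of 0.13, and 1.03 among numbers 33 to 48, with an adjusted p of 0.0151. It was 1.03 without the 4 lowest numbers, with an adjusted p of 0.0588, and the call was also lost without 2-month mouse 2, 2-month mouse 3 or 11-month mouse 3, at adjusted p-values of 0.0617, 0.0897 and 0.0595.

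Lypd1, a lipid-anchored Ly6-family protein of neurons that modulates nicotinic acetylcholine receptors, fell at 7 months. It was at 11.27, 11.25, 11.21 and 11.20 in the 2-month mice, a narrow range. It was at 10.09, 10.56, 10.46 and 10.85 at 7 months and at 10.70, 10.88, 11.02 and 10.89 at 11 months. Both older ages lay wholly below 2 months, and they overlapped each other through 7-month mouse 4. The means were 11.23 ± 0.03, 10.49 ± 0.31 and 10.87 ± 0.13 (SD, n = 4 each), and 7 against 2 months gave -0.74 with an SE of 0.13 and an adjusted p of 0.0194 in limma, a fall of 1.67-fold. The trend was -0.40 with an adjusted p of 0.347, and 11 against 7 months was 0.38 with an adjusted p of 0.878. The 7-month difference was -0.94 among numbers 1 to 32 and -0.55 among 33 to 48, with adjusted p-values of 0.29 and 0.762. Leaving out any 2-month mouse, or 7-month mouse 1, 2 or 3, ended the call, at adjusted p-values of 0.0619 to 0.126, as did the random block of mouse names and the replicate block, at 0.0654 and 0.0702.

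**Figure D1:**
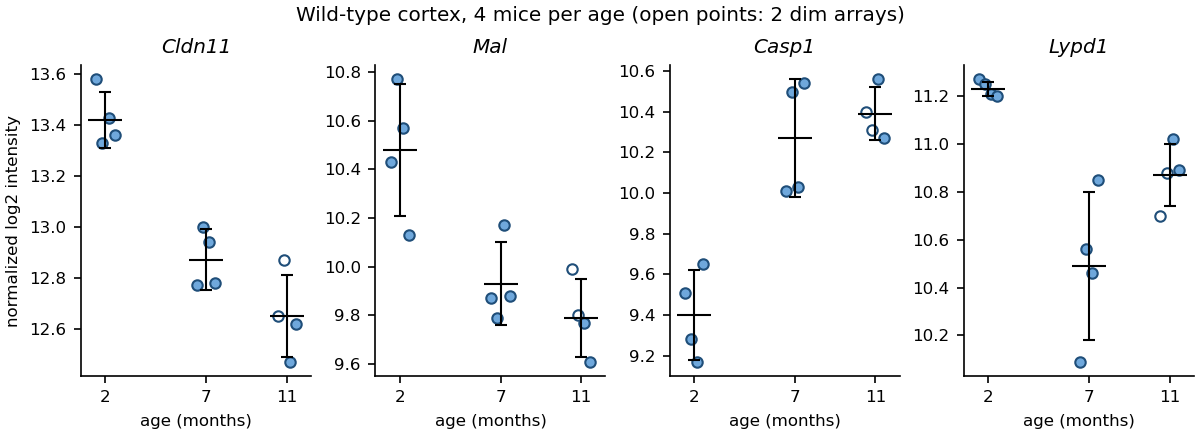
Normalized log2 intensity (vertical axes, each with its own range) of the 4 called genes against age in months in wild-type cortex, 1 point per mouse, with the mean and SD of 4 mice. Open points are the 2 dim 11-month arrays. The means of Cldn11 and Mal fall from 13.42 and 10.48 at 2 months, that of Casp1 rises from 9.40, and that of Lypd1 is lowest at 7 months.

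The bases upstream of the 3 genes called in the trend are shown because Cldn11 and Mal moved together and Casp1 the other way. They are the 250 bases before each annotated start in RefSeq on GRCm38.p6, read 5′ to 3′ along the gene's strand, with motif matches in capitals. Cldn11 is at chr3:31149670-31149919 on the plus strand, Mal at chr2:127656696-127656945 on the minus strand, and Casp1 at chr9:5298267-5298516 on the plus strand.
Cldn11: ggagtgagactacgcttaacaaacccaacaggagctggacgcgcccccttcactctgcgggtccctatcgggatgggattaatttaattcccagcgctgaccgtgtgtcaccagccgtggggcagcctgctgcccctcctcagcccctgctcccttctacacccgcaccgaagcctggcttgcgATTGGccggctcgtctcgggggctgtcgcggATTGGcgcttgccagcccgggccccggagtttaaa
Mal: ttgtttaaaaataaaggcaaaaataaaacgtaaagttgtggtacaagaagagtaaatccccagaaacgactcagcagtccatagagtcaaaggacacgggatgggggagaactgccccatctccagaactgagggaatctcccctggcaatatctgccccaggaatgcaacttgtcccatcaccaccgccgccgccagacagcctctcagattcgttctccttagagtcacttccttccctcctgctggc
Casp1: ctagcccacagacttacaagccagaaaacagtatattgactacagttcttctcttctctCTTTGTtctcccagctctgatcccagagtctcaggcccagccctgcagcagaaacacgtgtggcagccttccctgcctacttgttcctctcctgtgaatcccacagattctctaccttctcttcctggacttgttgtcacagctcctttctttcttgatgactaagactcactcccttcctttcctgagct
Short motifs were searched on both strands. The core letters ACAAAG of sites for SOX factors, which include the oligodendrocyte regulator SOX10, occurred once in the Casp1 window, on the opposite strand, and in 16.5% of 32851 promoter windows of the same length. The letters CCAAT occurred at 2 places in the Cldn11 window, both on the opposite strand and so printed as their complement, and in 33.8% of all windows. Neither TATAAA, held by 12.4% of all windows, nor the GC box GGGCGG, held by 32.7%, occurred in any of the 3, and the Mal window held none of the 4 motifs. Such matches are letters in a window, not sites.

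Among transcripts of mature oligodendrocytes and myelin, most had a lower fitted level with age and a few a higher one. Of 26 tested members of that list, 2 were called, both lower, and 21 had a trend below 0, with a median of -0.20 against -0.01 for all features, of which 5910 of 11047 were below 0. At an unadjusted p under 0.05, 9 members were lower and 2 higher. Tspan2, a tetraspanin of oligodendrocytes, had means of 10.15, 9.52 and 9.50 at 2, 7 and 11 months and a trend of -0.67 with an SE of 0.16 and an adjusted p of 0.127. Fa2h, which hydroxylates the fatty acids of myelin galactolipids, had means of 10.22, 9.77 and 9.80 and a trend of -0.44 with an adjusted p of 0.202. Its 8 later arrays all lay below the 4 youngest. Ugt8a, the enzyme that makes galactosylceramide, had a trend of -0.52 with an adjusted p of 0.275.

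Other members of the list did not pass. Mbp, myelin basic protein, had means of 14.58, 14.49 and 14.39 with a trend of -0.19 and an adjusted p of 0.405. Its other detected probes gave -0.04 and 0.19. Mog, a glycoprotein of the outer sheath, had means of 10.12, 9.59 and 9.64 and a trend of -0.50 on the main probe and -0.49 on the other, with an adjusted p of 0.365 for the first. Cnp, a phosphodiesterase of non-compact myelin, had a trend of -0.26, and its other probe one of -0.07. Adamts4, an oligodendrocyte protease, had a trend of -0.31.

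Hapln2, a link protein of the matrix around nodes of Ranvier, lay the other way. It was at 7.64, 7.71, 7.60 and 7.56 at 2 months, at 8.01, 8.20, 8.24 and 8.13 at 7 months and at 7.98, 8.29, 7.98 and 8.31 at 11 months. All 8 later arrays were above the 4 youngest, with a trend of 0.53 and an adjusted p of 0.213. Il33, an alarmin cytokine that oligodendrocytes and astrocytes hold in their nuclei, had means of 9.24, 9.77 and 9.81, again with no overlap between either later age and 2 months, and a trend of 0.58 with an adjusted p of 0.482.

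Of committed precursor and newly formed oligodendrocyte transcripts, 3 had a trend with an unadjusted p under 0.05, all lower and none called. They are named here after their values were seen. Enpp6, a choline phosphodiesterase that in mouse marks oligodendrocytes as they form, was at 8.36, 8.36, 8.74 and 8.99 at 2 months. It was at 6.83, 8.02, 7.72 and 7.50 at 7 months and at 7.84, 7.02, 7.88 and 7.35 at 11 months. All later arrays lay below all young ones, with a trend of -1.13, an SE of 0.27 and an adjusted p of 0.129. Bmp4, a secreted growth factor that in mouse committed precursors express, was at 7.76, 7.68, 7.87 and 7.93 at 2 months, at 6.26, 7.09, 6.48 and 7.72 at 7 months and at 5.25, 6.52, 7.33 and 6.01 at 11 months. The 2-month values were close together and the 11-month ones spread from background upwards. The lowest, 5.25, was on the dim array of 11-month mouse 1. The trend of Bmp4 was -1.54, with an SE of 0.38 and an adjusted p of 0.18. Gpr17, a receptor present for a short stage of differentiation, was at 10.19, 9.80, 9.89 and 10.15 at 2 months, at 9.30, 9.21, 9.75 and 9.74 at 7 months and at 9.66, 9.51, 9.36 and 9.28 at 11 months. It too lay lower in all later arrays, with a trend of -0.57, an SE of 0.18 and an adjusted p of 0.355. Enpp6 and Bmp4 were each called in 1 of 30 alternatives, with the runs 1 to 32 and 33 to 48 as a factor, at an adjusted p of 0.0362. Within the runs Enpp6 had trends of -0.96 and -1.29, at adjusted p-values of 0.401 and 0.109, and Bmp4 had -1.84 and -1.24, at 0.13 and 0.272. Without the 4 lowest numbers the trend was -1.04 for Enpp6 and -1.16 for Bmp4, with adjusted p-values of 0.28 and 0.304.

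Over all 16 tested members of that list, those 3 included, there was a median trend of -0.09. A trend below 0 was held by 10 of the 16, against 5910 of 11047 features. At an unadjusted p under 0.05 there were 0 higher members, and the 3 lower ones are those named above. Pdgfra, the growth factor receptor of precursors, had a trend of -0.23 with an unadjusted p of 0.0545 in limma. For 7 against 2 months the medians of the mature and the precursor lists were -0.10 and -0.08, with 3 higher and 8 lower of 26 and 0 higher and 4 lower of 16.

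**Figure D2:**
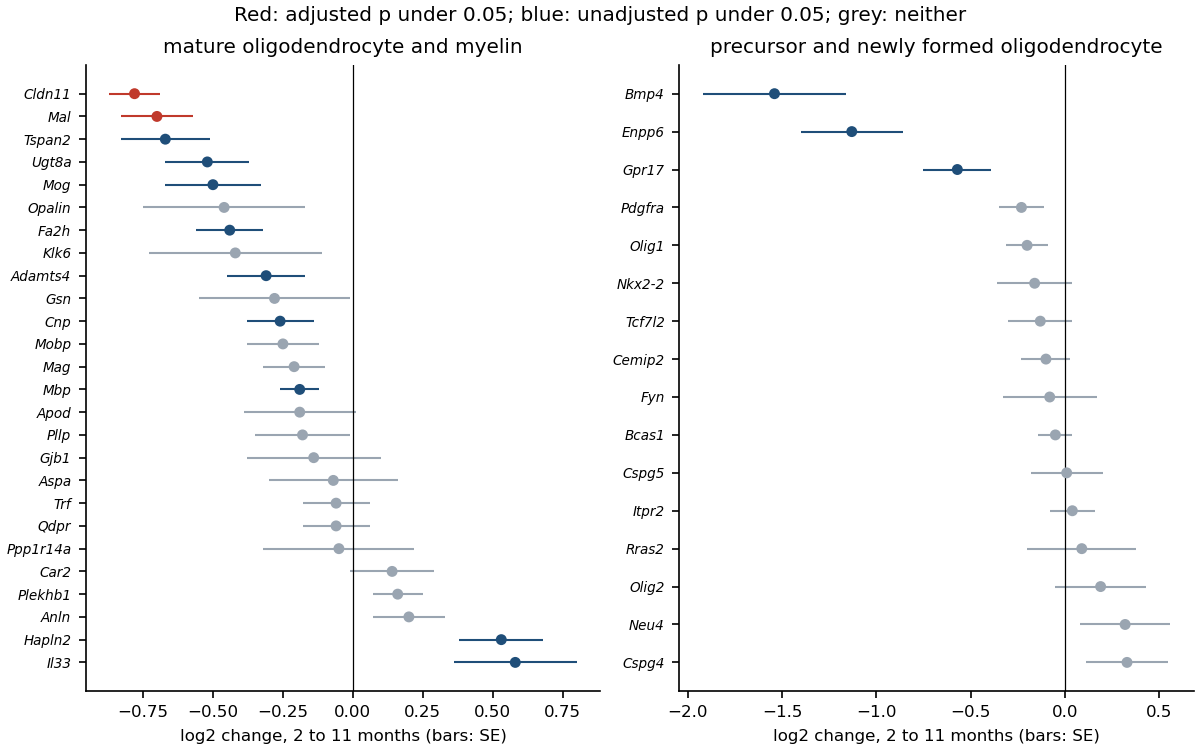
Fitted log2 change from 2 to 11 months (horizontal axis) of each tested member of the mature oligodendrocyte list (left, 26 genes) and of the precursor and newly formed list (right, 16 genes), with bars of 1 SE. Cldn11 at -0.78 and Mal at -0.70 are the called members, and Bmp4 at -1.54 and Enpp6 at -1.13 lie furthest from 0 without passing.

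Transcripts of the leptomeninges, the thin membranes on the cortical surface, had the lowest median of the lists described, and they differed widely between mice of the later ages. Of 11 tested members none was called, all 11 had a trend below 0, 6 had an unadjusted p under 0.05, and the median trend was -0.67. Slc13a4, a sulfate transporter of the meninges, was at 10.73, 10.74, 10.54 and 10.18 at 2 months, at 8.77, 10.42, 8.09 and 10.42 at 7 months and at 9.19, 9.83, 10.12 and 8.29 at 11 months. Its trend was -1.22 with an SE of 0.42 and an adjusted p of 0.39. Ogn, a small proteoglycan, was at 8.16, 8.07, 8.42 and 8.02 at 2 months, at 6.05, 7.85, 5.34 and 8.20 at 7 months and at 7.26, 7.45, 7.66 and 5.99 at 11 months. For both genes 7-month mice 1 and 3 and 11-month mouse 4 were low, and 7-month mice 2 and 4 lay at or near the 2-month level.

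The same animals were low across the list. The median difference of the 11 members from their 2-month means was -0.73, 0.00, -0.94 and 0.04 in the 7-month mice and -0.53, -0.40, -0.27 and -1.26 in the 11-month mice. In the 2-month mice it was 0.08, 0.19, -0.09 and -0.19. The summed level of the list spanned 13.83 to 14.29 at 2 months, 12.85 to 14.09 at 7 months and 12.76 to 13.88 at 11 months. Leaving out 1 mouse at a time moved the median trend between -0.85 and -0.47. How much of the membrane stayed on each dissected cortex was not recorded in the labels, and its part in these values was not tested. The collagen and extracellular matrix list, which meningeal fibroblasts also express, had a median of -0.18 over 18 tested members, with 2 higher and 5 lower at an unadjusted p under 0.05. Its Col1a1 had a trend of -0.57 and an adjusted p of 0.692, and Col3a1 was detected on none of the 12 arrays. The proteoglycan gene Bgn had a trend of -0.70 and the basement membrane gene Nid1 one of -0.89.

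**Figure D3:**
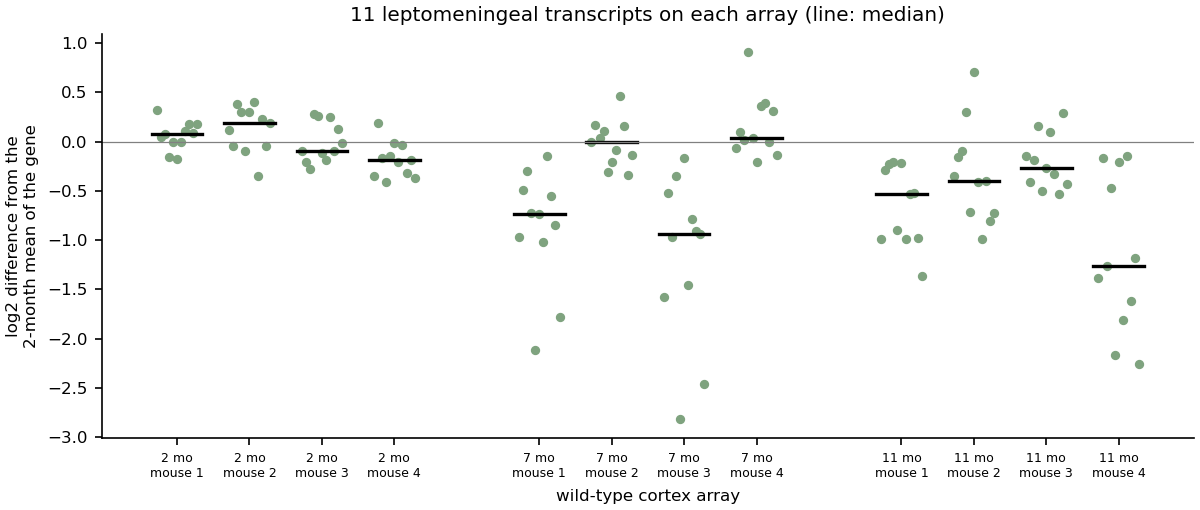
Difference of each of 11 leptomeningeal transcripts from its 2-month mean (vertical axis, log2) on each of the 12 wild-type cortical arrays, with the median of the 11 as a line. The median is -0.73 and -0.94 in 7-month mice 1 and 3 and -1.26 in 11-month mouse 4, while 7-month mice 2 and 4 are at 0.00 and 0.04.

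Acta2, the smooth muscle actin of arterial walls, lay lower in every later cortex. It was at 9.49, 9.39, 9.74 and 9.42 at 2 months, at 8.34, 8.94, 8.40 and 9.02 at 7 months and at 8.26, 8.91, 8.49 and 8.54 at 11 months. The trend of -0.98, with an SE of 0.21, had an adjusted p of 0.0765, and the other 3 Acta2 probes, each near the detection floor, gave -1.07, -0.21 and -0.20. It was called in 3 of 30 alternatives, among them the runs of internal numbers as a factor, at an adjusted p of 0.0227, and within the runs it was -0.88 and -1.09, not called. For Acta2 and for Bmp4, 7-month mice 1 and 3 lay below 7-month mice 2 and 4, as for the leptomeningeal list. At 11 months both genes were lowest in mouse 1, whose array was dim, and that list was lowest in mouse 4. Any link of either gene to that list was not tested. The pericyte and smooth muscle list had a median of -0.21, with 0 higher and 1 lower of 12 at an unadjusted p under 0.05. The 18 tested endothelial genes had a median of -0.02, with 0 higher and 1 lower, Vwf at -0.51.

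Beside the rise of Casp1, no gene of the microglial, complement, interferon or MHC lists was called. The 15 activated microglia genes had a median trend of -0.01 with 0 below an unadjusted p of 0.05, and the 19 homeostatic ones a median of -0.01 with 0 higher and 2 lower. Those 2 were the microglial receptor Fcrls at -0.61, with an adjusted p of 0.482, and the myeloid transcription factor Irf8 at -0.66. Complement genes had a median of -0.04 over 8, with 0 higher and 1 lower at an unadjusted p under 0.05. Among them C4b was at 0.28 with an adjusted p of 0.732. Interferon response and MHC class I genes had a median of -0.06 over 18, with 2 higher. These were Tap2, which loads peptides for MHC class I, at 0.43 with an adjusted p of 0.349, and the interferon-induced Ifi27 at 0.33 with an adjusted p of 0.231. B2m, the light chain of MHC class I, had a trend of -0.09 and an adjusted p of 0.925. The 4 MHC class II genes had a median of -0.14, none with an unadjusted p under 0.05.

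Ccl9, a chemokine that in mouse attracts myeloid cells, had a trend of -1.13 with an SE of 0.25 and an adjusted p of 0.0836. It was at 6.63, 7.15, 6.89 and 6.84 at 2 months, at 6.48, 6.72, 7.18 and 6.51 at 7 months and at 5.62, 5.12, 6.10 and 6.03 at 11 months. The 11-month values lay below all the others, and 2 of the 4 were not detected. The lowest values, 5.62 and 5.12, were on the dim arrays of 11-month mice 1 and 2. The trend was -1.48 among numbers 1 to 32 and -0.77 among 33 to 48. Without the 4 lowest numbers it was -0.79, with an adjusted p of 0.361.

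No member of either astrocyte list was called. General astrocyte genes had a median of 0.02 over 16, with 1 higher and 0 lower, and reactive astrocyte genes a median of -0.32 over 16, with 0 higher and 4 lower at an unadjusted p under 0.05. The difference between these lists was not tested. The summed level of the reactive list spanned 12.68 to 12.88 at 2 months, 12.72 to 12.97 at 7 months and 12.71 to 13.00 at 11 months, so the ages overlapped. Those 4 were the hyaluronan receptor Cd44, the intermediate filament gene Vim, the copper oxidase gene Cp and the membrane protein gene Emp1, several of which meningeal and vascular cells also express. Cd44 was at 6.47, 6.35, 6.41 and 6.69 at 2 months, at 5.44, 5.85, 5.73 and 5.60 at 7 months and at 5.38, 5.29, 5.74 and 5.98 at 11 months. It was detected on 4 of 4 arrays at 2 months and on 1 of 4 at each later age, so the size of its trend, -0.90 with an adjusted p of 0.2, is limited by background. The only other Cd44 probe tested, detected on 3 of 12 arrays, gave -0.13. Vim had a trend of -0.56 with an adjusted p of 0.468, Cp -0.45 and Emp1 -0.44. Gfap, the filament that marks reactive astrocytes, had means of 7.61, 8.09 and 7.75, a trend of 0.17 with an adjusted p of 0.874 and a 7 against 2 months difference of 0.48 with an adjusted p of 0.966.

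Neuronal lists lay close to all features. Median trends were -0.08 for 19 cortical excitatory neuron genes, 0.03 for 13 interneuron genes, -0.09 for 16 glutamate receptor and postsynaptic genes, 0.06 for 10 GABA genes and -0.06 for 19 sodium and potassium channel genes. Those 5 lists together held 2 higher and 4 lower members at an unadjusted p under 0.05. Immature neuron and axon growth genes had a median of -0.12 over 21, with 0 higher and 1 lower. That member was Robo1, a receptor for Slit guidance cues, at 9.85, 9.96, 10.04 and 10.22 at 2 months, at 9.72, 9.55, 9.82 and 9.82 at 7 months and at 9.52, 9.52, 9.42 and 9.63 at 11 months. All later values lay below all young ones, with a trend of -0.50, an SE of 0.11 and an adjusted p of 0.0765. Dcx, the microtubule protein of migrating neurons, had a trend of 0.15 and an adjusted p of 0.874, and Sox11 had no probe. Marcksl1, of the same list, had a 7 against 2 months difference of -0.89 with an adjusted p of 0.618.

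Grp, the neuropeptide gastrin-releasing peptide of some cortical neurons, is named after its values were seen. So are the list members named for an unadjusted p under 0.05, among them Tspan2, Hapln2, Slc13a4, Ogn, Robo1 and Acta2. Ccl9 was named by rule for 11 against 7 months, and its trend after the values were seen. Grp was at 7.23, 7.56, 6.09 and 6.40 at 2 months, at 7.06, 7.99, 6.42 and 6.94 at 7 months and at 8.14, 8.38, 8.11 and 8.20 at 11 months. The 11-month values lay together above every younger value, while both younger ages spread widely and overlapped. The trend was 1.35 with an SE of 0.29 and an adjusted p of 0.0765. It was 0.84 among numbers 1 to 32 and 1.87 among 33 to 48, the latter with an adjusted p of 0.0151. Ccn2, a matrix protein that in mouse marks the deepest cortical layer, had a trend of -0.75 with an adjusted p of 0.2.

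Among genes induced by neuronal activity none was called. The 25 immediate early genes had a median trend of -0.20, with 0 higher and 3 lower at an unadjusted p under 0.05. Those 3 were Arc at -0.85, with an adjusted p of 0.465, the kinase gene Sik1 at -0.79 and the phosphatase gene Dusp6 at -0.33. Fos had a trend of -0.40 and an adjusted p of 0.823. The 17 circadian clock genes had a median of -0.10, with 0 higher and 2 lower, and the 17 glucocorticoid response genes one of -0.14, with none on either side.

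Among genes of general cell function, the chaperone list had the lowest median, -0.21 over 19, with 0 higher and 3 lower at an unadjusted p under 0.05. Cryab, a small heat shock protein that oligodendrocytes and astrocytes also express, had a trend of -0.48 and an adjusted p of 0.162, and the co-chaperone genes Dnajb1 and Dnajb5 had trends of -0.21 and -0.49. The 61 mitochondrial respiratory chain genes had a median of -0.01, with 1 higher and 0 lower, Cox6a1 at 0.24 with an adjusted p of 0.213. The 28 proteasome genes had a median of -0.03 and the 22 lysosome and autophagy genes one of -0.02. Cholesterol synthesis genes had a median of 0.01 over 18, with 2 higher, the master regulator Srebf2 at 0.33 and the sterol reductase gene Tm7sf2 at 0.63. The antioxidant list had a median of -0.09 over 16, with 1 higher and 1 lower at an unadjusted p under 0.05. Its Gstp1, a glutathione transferase, had a trend of 0.40 with an adjusted p of 0.283. Htt, the mouse huntingtin gene, had means of 7.29, 7.22 and 6.85 and a trend of -0.42 with an adjusted p of 0.806, and its lowest value, 5.58, was on the dim array of 11-month mouse 1.

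Of 5 tested blood transcripts none was called, and 1 was higher at an unadjusted p under 0.05 for 7 against 2 months. They had a median of 0.36 for 7 against 2 months and -0.33 for 11 against 7 months, and their summed level spanned 13.28 to 13.81 at 2 months, 13.86 to 14.33 at 7 months and 13.36 to 13.97 at 11 months. Alas2, the heme synthesis enzyme of red cell precursors, had a 7 against 2 months difference of 0.68 with an unadjusted p of 0.0283. Hba-a1, alpha globin, had means of 13.55, 13.97 and 13.70. Both had an adjusted p of 1 for that comparison. The part of blood content in the 7-month differences was not tested. Of choroid plexus markers, Clic6 and Folr1 were detected on none of the 12 arrays, and Ttr ranged from 8.25 to 10.22. Of the striatal neuron list 0 of 8 tested members were called. At an unadjusted p under 0.05, 0 were higher and 2 lower for 7 against 2 months, where 275 of 11047 features were lower. For 11 against 7 months 2 were higher and 0 lower, where 232 of 11047 features were higher. The part of striatal tissue in these values was not tested. The dopamine receptors of that list lay below their striatal levels, Drd1 at 7.88 to 8.75 against a 2-month striatal mean of 13.17 and Drd2 at 5.22 to 6.87 against 11.59.

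**Figure D4:**
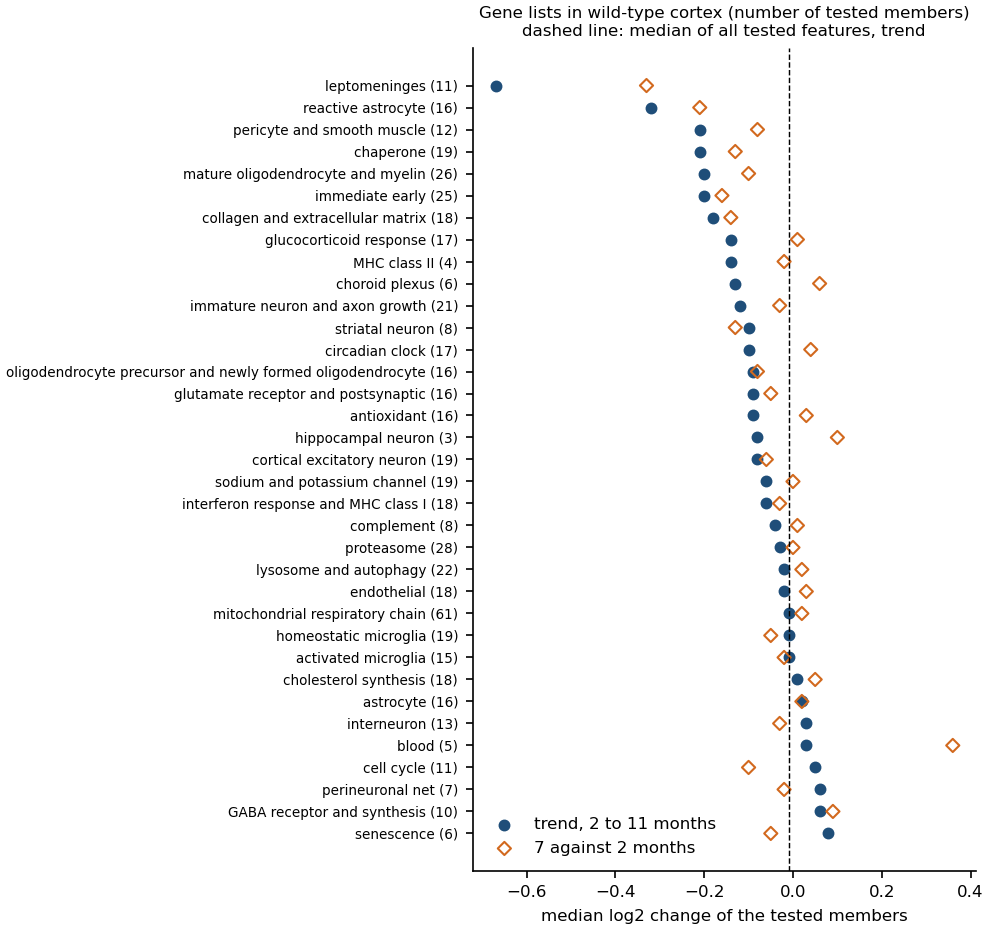
Median log2 change of the tested members of each gene list in wild-type cortex, as the trend from 2 to 11 months (filled circles) and as 7 against 2 months (open diamonds), with the number of tested members in brackets and the median trend of all features as a dashed line. The leptomeningeal list lies at -0.67 and the reactive astrocyte list at -0.32, while activated microglia, at -0.01, lie on the median of all features.

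Several single genes outside the lists lay just short of the threshold in the trend and are named here after their values were seen. Nckipsd, an adaptor of the actin cytoskeleton, had a trend of 0.46 with an SE of 0.09, Tmcc2 one of 0.67 with an SE of 0.14, and Ahcyl2 one of 0.44 with an SE of 0.10, each with an adjusted p of 0.0765. Gpx8, a peroxidase of the endoplasmic reticulum, had means of 8.60, 7.56 and 7.77. Its trend was -0.87 with an adjusted p of 0.127, and its 7 against 2 months difference was -1.04 with one of 0.0814. The trend was called in 3 of 30 alternatives and the 7 against 2 months difference in 4 of 30. The other 2 Gpx8 probes, both detected on all 12 arrays, were not part of the adjusted test, which reads 1 probe a gene. They gave trends of -1.46 and -0.76, with unadjusted p-values of 3.5e-08 and 0.000636, and 7 against 2 months differences of -1.13 and -0.84. For 7 against 2 months, where no feature rose, the lowest p-values among higher features belonged to Plekha4 at 0.78, with an adjusted p of 0.133, Casp1, and Tmcc2 at 0.59 with an adjusted p of 0.242.

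No transcript passed for 11 against 7 months, 0% of features, and the smallest adjusted p was 0.737. At an unadjusted p under 0.05 there were 516 features, 4.67%. The lowest p-values belonged, without passing, to Bex4 at 0.44, the elongation factor gene Ell3 at 0.98 and the protocadherin gene Pcdh8 at 0.88 on the higher side. On the lower side they belonged to Ccl9 at -1.01, the potassium channel gene Kcna2 at -0.44 and Pheta1 at -0.58.

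No transcript departed from a straight line over the 3 ages either, 0%, with a smallest adjusted p of 0.434 and 376 features, 3.4%, at an unadjusted p under 0.05. The departure is the 7-month mean minus the line through the other ages. It was most negative in p for Lypd1, at -0.54 with an adjusted p of 0.434, then for Bex4 at -0.41 with one of 0.555 and for the sialyltransferase gene St6galnac5 at -0.37. On the other side lay Kcna2 at 0.43 with an adjusted p of 0.567, Mettl21a at 0.87 and Plekha4 at 0.47. Kcna2, a channel of axons and their juxtaparanodes, was at 10.57, 10.55, 10.65 and 10.37 at 2 months, at 11.05, 10.90, 11.00 and 10.84 at 7 months and at 10.14, 10.39, 10.83 and 10.66 at 11 months. Every 7-month value lay above every value of the other ages.

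The striatum of the same mice was compared within animals, as the cortical change minus the striatal change over 11844 features. For the trend 1 feature was called, 0.00844%, and 1024, 8.65%, had an unadjusted p under 0.05. The called gene was Sec14l3, a member of a lipid-binding family, at -1.24 with an SE of 0.18 and an adjusted p of 0.0133. It was detected on none of the 12 cortices, and the difference is the striatal side, where its means were 5.08, 5.79 and 6.34, at and just above the detection floor. The call was lost on the authors' values, with an adjusted p of 0.176, and without 2-month mouse 1 or 4 or 11-month mouse 3, at 0.121, 0.0783 and 0.104. For 7 against 2 months 1 feature was called, 0.00844%, and 531, 4.48%, had an unadjusted p under 0.05. The called gene was Dmkn, a secreted protein first described in skin, at -1.17 with an adjusted p of 0.0387. Its means were 7.48, 6.96 and 6.97 in cortex and 11.30, 11.95 and 11.77 in striatum. It was lost in the fit without mouse as a block, with an adjusted p of 0.354, and without any of 9 mice, all but 2-month mouse 1 and 11-month mice 1 and 2.

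The genes that changed in cortex were not shown to differ from striatum. Cldn11 had a striatal trend of -0.26 and a difference of -0.52 with an adjusted p of 0.274. Casp1 had a striatal trend of 0.14 and a difference of 0.87 with an adjusted p of 0.233, and Mal a striatal trend of -0.41 and a difference of -0.29 with an adjusted p of 0.684. Bmp4 and Gpr17, which were not called in cortex, had striatal trends of -1.34 and -1.04 that passed, with adjusted p-values of 0.0125 and 0.00148. Among features higher in the cortical trend than in the striatal one, the lowest p-values, none of them past the threshold, belonged to the mitotic gene Incenp at 0.82 and the sterol dehydrogenase gene Nsdhl at 0.91, both with an adjusted p of 0.207, and to Ahcyl2 at 0.63 with one of 0.208. For 7 against 2 months they belonged to 1110017D15Rik at 0.60, Depdc1b at 0.82 and Wdr41 at 0.83, with adjusted p-values of 0.33, 0.348 and 0.485.

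The wild-type trend was also set against that of BACHD-ΔN17 cortex. The wild-type slope minus the BACHD-ΔN17 slope was called higher for 285 features, 2.58%, and lower for 145, 1.31%. Of these 430 features, 0 were called in the wild-type trend itself, against 3 of all 11047 tested. An unadjusted p under 0.05 in that trend was held by 76 of the 430 and by 900 of the 11047. The wild-type slope is part of the comparison that picked the 430, so the count of 76 is not a separate result. The median size of the trend over the 430 was 0.14 in wild type and 0.69 in BACHD-ΔN17 cortex. Largest on the higher side were Slc23a3 at 2.88, Ddit4l at 2.43, the vesicle gene Sytl1 at 2.28, the calcium sensor gene Otof at 2.19, the activity-dependent transcription factor gene Npas4 at 2.00 and Mslnl at 1.88. Their wild-type trends were 0.50, 0.22, 1.00, 0.05, 0.39 and 0.63. On the lower side were the developmental transcription factor genes En2 at -5.10, Pou4f1 at -4.64, Barx1 at -4.47, Hoxc6 at -4.19, Twist1 at -4.14 and Shox2 at -3.86. In wild-type cortex Pou4f1, Barx1 and Hoxc6 were detected on none of the 12 arrays and En2 on 1 of them, so these differences come from the transgenic side.

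A pair of genes described above differed in slope between the genotypes, Grp by 1.54 with an SE of 0.41 and an adjusted p of 0.0316, and Ccl9 by -1.75 with an SE of 0.35 and an adjusted p of 0.00377. Grp had a trend of -0.18 in BACHD-ΔN17 cortex and Ccl9 one of 0.62, neither called. The Ccl9 difference stayed called under every alternative run, while its size ranged from -1.9 to -0.6. Without the 4 lowest numbers, which include both dim arrays, the Ccl9 difference was -1.42 with an adjusted p of 0.0431. That of Grp was lost without the 4 lowest numbers, with an adjusted p of 0.182, and without 2-month mouse 3 or 4, 11-month mouse 2 or 4 or any of 4 BACHD-ΔN17 mice, at 0.0505 to 0.0781. That of Npas4 was lost without the 4 lowest numbers, at 0.061. The 3 genes called in the wild-type trend were not among the 430. Cldn11 had a BACHD-ΔN17 trend of -0.42, with an adjusted p of 0.00187, and a difference of -0.36 with an adjusted p of 0.11. The difference was 0.57 for Casp1 and -0.35 for Mal, with adjusted p-values of 0.187 and 0.329. Lypd1 had a BACHD-ΔN17 trend of -0.54 with an adjusted p of 0.00457, and Acta2 one of -1.40 with an adjusted p of 4.37e-05. Enpp6 had -0.06 there and a difference of -1.07 with an adjusted p of 0.115.

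**Figure D5:**
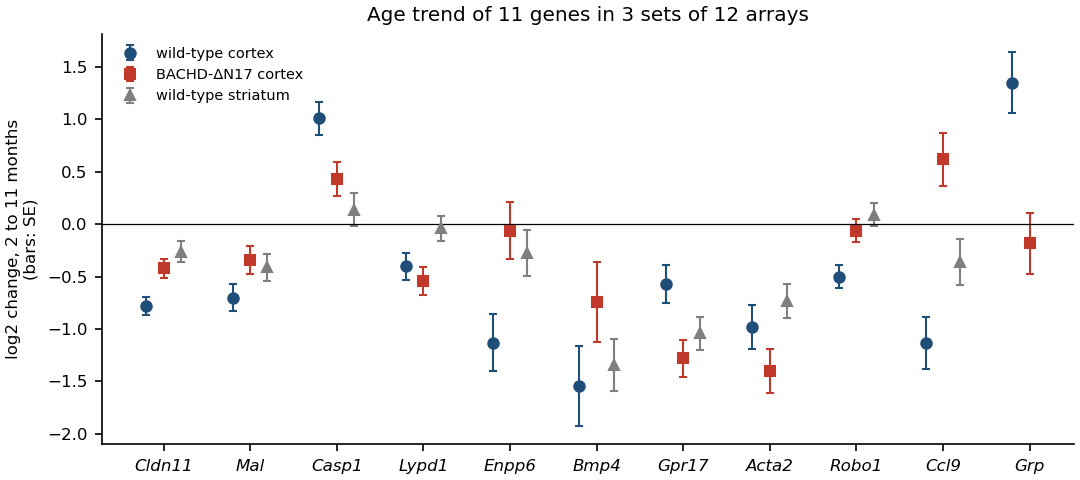
Fitted log2 change from 2 to 11 months (vertical axis, bars of 1 SE) of 11 genes named in the text, in wild-type cortex, BACHD-ΔN17 cortex and wild-type striatum, 12 arrays each. Grp, with no tested striatal value, and Ccl9 are the plotted genes whose slopes were called different between the genotypes, at 1.35 against -0.18 and -1.13 against 0.62.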

How the data were processed

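Cortical and striatal total RNA was amplified, biotin-labelled and hybridised, per the labels' protocols. The authors deposited non-normalized probe intensities with a detection p-value per probe and array, per the file headers, and a second table of processed log2 values. That deposited log2 table equals quantile normalization without background correction (largest difference 5e-09) and served as an alternative, and the software behind it is not given in the sources used here. No depth exists for arrays, and 4 mice a group limit the precision.

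The intensities of all 48 arrays were corrected and quantile-normalized with neqc (offset 16) in limma 3.58.1 under R 4.3.3. Names came from the platform table, which gives 1 symbol for 23978 of the 25697 probes, several for 0 and none for 1719, giving 16593 genes and 18312 features, each read by its brightest probe. Features with a detection p under 0.05 on at least 4 of the 24 cortical arrays were tested, 11047 in all (11844 on at least 4 of 48 arrays for the regional difference). The 24 cortical arrays entered 1 limma fit with 6 group means and sex, with an intensity trend in the eBayes step and Benjamini-Hochberg adjustment at 0.05. The regional differences were fitted within mice. The code was tested on simulated data.

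Named genes are those past the threshold (up to 12 each way for the trend and for 7 against 2 months, 6 elsewhere), the 3 lowest p-values where none passed, up to 3 called members of a list, and Gfap, C4b, B2m, Mbp, Mog, Dcx, Sox11, Col1a1, Col3a1, Fos, Htt, Xist and Kdm5d. Other genes were named after their values were seen. The 36 gene lists hold 752 distinct symbols, 689 with a probe and 549 tested. The members, lists and tests were chosen with earlier results of these data known. Alternatives changed the background correction, normalization, detection filter, probe rule, covariates, variance model, arrays and mice. Promoter sequences are from RefSeq on GRCm38.p6.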

Additional observations from a re-analysis of the deposited data

Results flagged for a closer look

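Single mice stood apart from the other 3 of their age in 11 of 276 groups looked at, which are the 3 ages of 92 named genes. Standing apart means a gap to the nearest mouse, as a share of the group's range, above Dixon's critical value, and chance gives this in about 1 in 20 groups. At 2 months mouse 3 was high for Anln, a myelin cytoskeleton gene, at 9.12 and low for Fos at 10.48, and mouse 4 was low for Nsdhl at 7.81. At 7 months mouse 2 was low for Col6a2 at 5.78 and high for St6galnac5 at 9.75 and Tmcc2 at 10.54. Also at 7 months, mouse 3 was high for Htt at 7.46 and mouse 4 low for Tspan2 at 9.30. At 11 months mouse 4 was low for the leptomeningeal Dcn at 8.92, mouse 3 high for Dcx at 9.63 and mouse 2 high for Depdc1b at 5.64. Of the 11, 1 was on a dim array.

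Cortex and striatum of the wild-type mice differed in the trend of Sec14l3, by -1.24, and in the 7 against 2 months change of Dmkn, by -1.17, cortex minus striatum in both. Sec14l3 was detected on none of the 12 cortices, so its difference is taken against a cortical signal at background and has no measured cortical side. Wild-type and BACHD-ΔN17 cortex differed in the trend of 430 features, of which the 6 largest each way and, named for other reasons, Grp and Ccl9 are given here, wild type minus transgenic. The differences were 2.88 for Slc23a3, 2.43 for Ddit4l, 2.28 for Sytl1, 2.19 for Otof, 2.00 for Npas4, 1.88 for Mslnl and 1.54 for Grp. On the lower side they were -5.10 for En2, -4.64 for Pou4f1, -4.47 for Barx1, -4.19 for Hoxc6, -4.14 for Twist1, -3.86 for Shox2 and -1.75 for Ccl9.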

How the results depend on the processing

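The direction of all 5 calls in wild-type cortex held under each of 30 alternatives, but their number did not. The Cldn11 trend stayed called in 29, Casp1 in 23 and Mal in 13, and the 7 against 2 months calls of Cldn11 in 16 and Lypd1 in 15. The trend count of 3 became 1 with eBayes without an intensity trend, 5 with array weights, 6 with consecutive eights of internal numbers as a factor, 22 with numbers 1 to 32 and 33 to 48 as a factor, 0 with numbers 1 to 32 alone, 7 with numbers 33 to 48 alone, and 1 to 5 with 1 mouse left out. Scale normalization also gave 3, split into 0 higher and 3 lower, and moved the median of all features to -0.11. The 7 against 2 months count of 2 became 0 with scale normalization, with the 12 arrays normalized and fitted alone or only fitted alone, with either run of numbers alone, and with the shared start of mouse names as a random block. It became 1 without the intensity trend or with the replicate block, a rising feature in each case with neither Cldn11 nor Lypd1 kept. It was 4 with the mean of all probes, and 6 with eights or without the 4 cortical arrays of the lowest internal numbers. The runs gave 8, array weights 9, and leaving 1 mouse out 0 to 3. The 11 against 7 months count of 0 became 2 with numbers 1 to 32 alone, and the count of departures from a line was 0 to 1 with 1 mouse left out. The cortex minus striatum trend count of 1 became 3 on the authors' values, 0 with scale normalization and 0 to 2 with 1 mouse left out. Its 7 against 2 months count of 1 became 2 on the authors' values, 0 with scale normalization, without a detection filter and with no replicate block (mouse), and 0 to 1 with 1 mouse left out. The genotype difference of 430 became 115 with scale normalization and 673 with the runs. It became 244 without the 4 lowest numbers and 282 to 475 with 1 mouse left out. Reversed trends all belonged to genes without a call: B2m (-0.09) was 0.04 with eights, 0.07 with numbers 33 to 48, 0.08 with the replicate block and 0.13 with the mean of all probes, Dcx (0.15) was -0.10 with numbers 1 to 32, and Fos (-0.40) was 0.00 there and -0.64 to 0.01 with 1 mouse left out, above 0 without 11-month mouse 3. Gfap (0.17) was -0.09 with numbers 1 to 32 and -0.04 to 0.29 with 1 mouse left out, below 0 without 2-month mouse 4. Htt (-0.42) was 0.02 with eights, 0.06 with numbers 33 to 48 and 0.18 without the 4 lowest numbers. Dmkn was called in 4 and Sec14l3 in 11 of 16 alternatives. The replicate numbers of the labels, which repeat within groups, share only a number: residuals of 8 same-numbered pairs correlated at -0.43 to 0.10, against -0.38 to 0.46 for 40 other pairs. The cause of these changes was not tested, except that fits on fewer arrays have less power by construction. Signals near the detection floor, 5.62 to 6.17, limit the size of any fall below it.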
